A study of Mus musculus with 4 samples.

Results

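The strongest Runx3 peaks of splenic CD4+ dendritic cells (DC) were chosen by their MACS2 peak score, at 68 or more in the deposited list. This left 522 of 15121 peaks, and the other 14599 peaks, with scores under 68, served as the comparison. Runx3 ChIP-seq had been carried out on chromatin of freshly sorted CD11chiMHCII+CD4+ splenic DC, pooled over mice, with an in-house polyclonal antibody to Runx3. There were 2 biological replicates (Runx3_IP) and 2 controls of whole cell extract chromatin without precipitation (input). The strain label is C57BL/6 for both Runx3_IP samples and 1 input, and C57BL/7 for the other input. No treatment or engineered allele is named for these cells. The labelled cell type could not be checked from a peak list, which holds no expression values. Both precipitates were called together against both inputs, so each peak has 1 score and no value per replicate, and no spread between replicates can be given. Peaks, not samples, were counted, and 95% intervals cover counting error over peaks only.

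Runx3 belongs to the RUNX family of transcription factors, which bind DNA through the Runt domain together with the partner Cbfb. The short sequence TGTGGT is the core of the RUNX site, and TGCGGT is a second form of it. In immune cells RUNX factors act at promoters and at distant enhancers, often beside ETS family factors such as PU.1. The CD4+ DC of the spleen are conventional DC that present antigen to CD4+ T cells and depend on Notch2 signalling.

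The sequences below are 150 bases of 9 strong peaks, read from the plus strand of NCBIM37, the assembly that is also named mm9. They show how RUNX hexamers lie in these peaks, and each window was placed where it holds the most of them. Capitals mark TGTGGT or TGCGGT on either strand, so that a hexamer on the minus strand reads ACCACA or ACCGCA. The windows are chr11:54968629-54968778 for Slc36a3, chr10:111439705-111439854 for Glipr1, chr12:86809678-86809827 for Fos, chr1:140033052-140033201 for Ptprc and chr16:92826145-92826294 for Runx1. Those of Runx3, Il6ra, Stat3 and Sfpi1 are chr4:134676290-134676439, chr3:89715263-89715412, chr11:100758964-100759113 and chr2:90923094-90923243.
Slc36a3: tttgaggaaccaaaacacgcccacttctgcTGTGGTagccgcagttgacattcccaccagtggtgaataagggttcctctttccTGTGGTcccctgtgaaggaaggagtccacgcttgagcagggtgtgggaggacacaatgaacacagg
Glipr1: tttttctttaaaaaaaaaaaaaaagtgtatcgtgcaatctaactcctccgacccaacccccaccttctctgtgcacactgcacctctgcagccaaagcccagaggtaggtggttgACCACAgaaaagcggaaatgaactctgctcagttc
Fos: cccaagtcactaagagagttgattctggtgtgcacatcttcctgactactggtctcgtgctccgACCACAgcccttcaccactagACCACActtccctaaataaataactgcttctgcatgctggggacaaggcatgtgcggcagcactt
Ptprc: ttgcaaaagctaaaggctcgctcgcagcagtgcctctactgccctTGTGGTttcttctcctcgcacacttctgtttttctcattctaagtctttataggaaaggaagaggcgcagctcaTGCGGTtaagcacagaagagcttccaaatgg
Runx1: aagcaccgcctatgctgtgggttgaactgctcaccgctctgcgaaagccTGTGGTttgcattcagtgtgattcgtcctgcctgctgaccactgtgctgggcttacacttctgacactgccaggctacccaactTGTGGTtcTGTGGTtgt
Runx3: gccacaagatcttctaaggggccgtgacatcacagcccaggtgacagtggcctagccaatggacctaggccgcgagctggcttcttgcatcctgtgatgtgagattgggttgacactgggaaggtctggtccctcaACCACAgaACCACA
Il6ra: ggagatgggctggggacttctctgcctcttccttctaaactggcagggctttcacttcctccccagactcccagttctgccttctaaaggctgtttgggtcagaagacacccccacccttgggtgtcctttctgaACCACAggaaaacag
Stat3: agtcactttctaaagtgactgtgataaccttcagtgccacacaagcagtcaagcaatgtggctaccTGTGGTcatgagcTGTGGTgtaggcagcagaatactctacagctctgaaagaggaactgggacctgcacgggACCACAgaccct
Sfpi1: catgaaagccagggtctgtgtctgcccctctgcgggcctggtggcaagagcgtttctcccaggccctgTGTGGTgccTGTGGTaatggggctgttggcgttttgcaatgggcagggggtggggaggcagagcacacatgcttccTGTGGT

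Scores of the strongest peaks ran from 68.13 to 309.3 with a median of 86.5, and their unit is not stated. The 3 lowest scores inside the threshold were all 68.13, a value that 16 peaks shared, and the 3 highest outside it were 67.98, 67.68 and 67.34. The peaks held 208 distinct scores. A score of 100 or more was reached by 162 peaks, 150 or more by 29 and 200 or more by 7. Width went with the score, so the strongest peaks were also wide, with a median of 659 bp (95% interval 646 to 671) against 400 bp (397 to 403) in the rest. Across the strongest peaks Spearman's rank correlation of score and width was 0.17 over 522 peaks, and across the rest it was 0.69. Motifs were therefore counted in the central 200 bp of every peak unless stated otherwise.

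The highest score, 309.3, belonged to a peak 3494 bp upstream of Slc36a3, which encodes a member of a family of amino acid transporters. It lay at chr11:54968288-54969119 and held 2 copies of TGTGGT. The next peak, with a score of 264.31, lay 93 bp upstream of the transcription start site (TSS) of Glipr1, at chr10:111439423-111440137. The third lay 3217 bp upstream of Atp13a2, which encodes a lysosomal transport ATPase, and scored 243.48. A peak in exon 4 of Ncam2, the gene of a neural cell adhesion molecule, scored 232.83 and had its nearest other peak 506041 bp away. Of these 4 peaks 1 was promoter-proximal.

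The peaks ranked next included several near genes with known functions in leukocytes. Arhgap25 had a peak of 206.09 located 8009 bp upstream of its TSS. Ptprc, which encodes the pan-leukocyte phosphatase CD45, had a peak of 183.86 in intron 2 with 3 RUNX hexamers. Fos, the gene of an AP-1 subunit, had a peak of 185.75 located 5087 bp upstream, in which both hexamers lay close to the centre. Psma6, the gene of a proteasome subunit, had a peak of 199.13 in intron 1 and a second of 71.58 in the same intron. The immediate early gene Ier5 was the nearest protein-coding gene to a peak of 187.18, but its TSS lay 84481 bp away. The nearest gene is a name for the place and was not shown to be the gene that a peak acts on.

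The remaining peaks of the 20 with the highest scores were of mixed kinds. Those nearest to Dmwd (226.84) and to Brpf1 (175.79), which encodes a subunit of histone acetyltransferase complexes, lay within 1 kb of a TSS. Those nearest to Lmtk2 (198.54) and Hecw2 (186.95) lay in introns of these genes. The peak nearest to Hdac10, a deacetylase gene, lay in intron 11 of Mapk12 and scored 173.61. The peaks nearest to 4930553M12Rik (222.35), Ccdc114 (191.51), S100a11 (172.96), Lipg (167.3) and Ctnna1 (163.08) were intergenic. A peak in intron 4 of Btbd9, nearest to the TSS of Gm9874, scored 191.51 and held many repeated RUNX hexamers.

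The strongest peaks lay near a TSS less often than the rest of the list. A TSS was within 1 kb of the centre in 151 strongest peaks, or 28.9%, against 38.3% of the rest. The difference was -9.39 percentage points with a 95% interval of -13.2 to -5.28. It was -21.9 points (-26.4 to -17.1) against other peaks of like width and -14.7 points for scores of 100 or more. Peaks of like width were the 1380 others between 589 and 791 bp, the quartiles of the strongest peaks. All strongest peaks were kept in such comparisons, including those outside this range, so width was matched only in part. Intergenic peaks made up 34.7% of the strongest (181 peaks) against 29.0%, a difference of 5.69 points (1.66 to 9.93). Introns held 178 peaks, 34.1% against 30.5%, with an interval of the difference from -0.418 to 7.83 that included 0. Exons held 12 peaks, 2.30% against 2.19%. The median distance to the nearest TSS was 6088 bp (4906 to 7679) in the strongest peaks and 3617 bp (3410 to 3864) in the rest. Between 10 and 50 kb from a TSS 158 strongest peaks were found, or 30.3% against 25.7% (4.60 points, 0.743 to 8.73). The differences were 1.49 points between 1 and 5 kb, 1.88 points between 5 and 10 kb and 1.43 points beyond 50 kb, each with an interval that included 0.

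**Figure D1:**
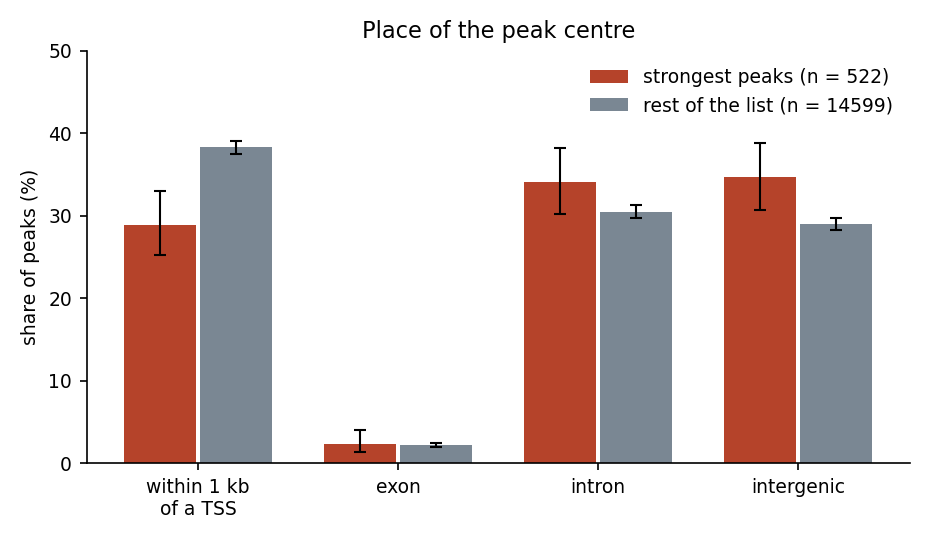
Share of peaks in percent by the place of the peak centre, for the 522 strongest peaks and the 14599 others; bars start at 0 and error bars are 95% Wilson intervals. The strongest peaks stand lower than the rest within 1 kb of a TSS (28.9% against 38.3%) and higher in intergenic sequence (34.7% against 29.0%).

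The centre was inside a protein-coding gene in 264 peaks and in an intron of the longest transcript in 206 peaks. Of these, 85 (41.3%) lay in intron 1, against 46.7% of 5638 intronic peaks of the rest (interval of the difference -12.1 to 1.47 points). CpG-rich sequence, the kind that makes up most housekeeping promoters, was found around 103 strongest peaks (19.7%) against 28.8% of the rest (-9.11 points, -12.4 to -5.41). Against other peaks of like width the difference was -22.0 points (-26.1 to -17.6). Here CpG-rich means a GC content of at least 50% and an observed over expected CpG ratio of at least 0.6 in the 500 bp around the centre. Within classes of distance to a TSS the intervals included 0. Among peaks within 1 kb of a TSS 94 of 151 (62.3%) were CpG-rich against 69.4% (interval of the difference -15.2 to 0.258), and beyond 1 kb 9 of 371 (2.43%) against 3.63% (-2.42 to 0.946). GC content had medians of 50.1% (49.4 to 50.6) and 50.4% (50.2 to 50.4).

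Strong peaks had near neighbours more often. Another peak of any score lay within 10 kb of 255 strongest peaks (48.9%) against 42.8% of the rest (6.07 points, 1.73 to 10.4). Against other peaks of like width the difference was 3.05 points and its interval (-1.96 to 8.07) included 0. Rasgef1b, a guanine nucleotide exchange factor gene, and Tbc1d4, a Rab GTPase-activating protein gene, were each nearest to 3 strongest peaks. Those of Tbc1d4 scored 133.02, 99.32 and 93.11 and lay in introns 12, 3 and 1 of the gene, the first of them 19 bp from a TSS inside the gene. Those of Rasgef1b scored 85.9, 79.7 and 71.92 and lay 14629, 42 and 83684 bp upstream of its TSS. Another 30 genes were nearest to 2 strongest peaks each.

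No strongest peak lay on chromosome X, although the list holds 179 peaks there. A count of 0 of 179 allows a share of up to 1.68%, and the share over chromosomes 1 to 19 was 3.49% of 14942 peaks. On single autosomes the share ran from 2.27% to 5.06%. The highest score on X was 64.72, just under the threshold. At a score of 34, which is 0.5 times the threshold, X had 9 peaks (5.03%), against 2169 autosomal peaks (14.5%). How many copies of X these cells carried is not given in the sources used here, and its part in this absence was not tested.

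RUNX hexamers were more frequent and more numerous in the strongest peaks. TGTGGT was found in the central 200 bp of 283 strongest peaks, 54.2% (49.9 to 58.4), against 41.3% of the rest, a difference of 12.9 points (8.53 to 17.2). Against other peaks of like width it was 20.9 points (15.9 to 25.8), with strongest peaks of every width kept. In 3 classes of width, applied to both groups, it ran from 14.6 to 33.1 points. TGTGGT or TGCGGT was found in 361 (69.2%) against 52.0%. At least 2 RUNX hexamers lay in the central 200 bp of 147 strongest peaks (28.2%) against 11.8% of the rest, a difference of 16.4 points (12.7 to 20.4).

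Over the whole peak, which is longer in the strongest peaks, TGTGGT was present in 403 of 522 (77.2%) against 53.2%. At least 2 RUNX hexamers were present in 298 (57.1%) against 24.5%, at least 3 in 130 (24.9%) against 6.95%, and at least 5 in 21 (4.02%) against 0.459%. Within the 3 classes of width these differences were smaller. For at least 2 hexamers they were 17.8, 11.8 and 17.3 points, against 32.6 points over all widths. For TGTGGT they were 13.1, 19.2 and 15.7 points, against 24.0 points. Each peak was also compared with a window of its own width 10 kb downstream. TGTGGT was in 77.3% of 502 strongest peaks and in 45.0% of their windows. It was in the peak alone in 203 pairs and only in the window in 41, and the exact McNemar test, two-sided, gave p = 5.72e-27. The rest of the list also held TGTGGT more often than its windows, in 53.1% of 14299 peaks against 30.4%. The windows of the strongest peaks, which are longer, thus held it more often too, and this comparison does not separate the strongest peaks from the rest.

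The difference in hexamer number was seen in each class of place. At least 2 hexamers in the central 200 bp were found in 17.9% of the strongest peaks within 1 kb of a TSS against 5.81% of such peaks in the rest. In introns the shares were 34.8% and 16.3%, in intergenic sequence 29.8% and 14.8%, and in exons 33.3% and 12.9%, where only 12 peaks were counted. For a single TGTGGT the intervals excluded 0 in introns (69.7% against 55.7%, 6.73 to 20.4 points) and in intergenic sequence (61.3% against 51.4%, 2.52 to 16.9 points). Within 1 kb of a TSS the shares were 27.8% and 21.7%, and the interval included 0 (-0.544 to 13.8 points). Among the strongest peaks themselves, TGTGGT was present in 241 of 371 (65.0%) beyond 1 kb of a TSS and in 42 of 151 (27.8%) within it, a difference of 37.1 points (28.0 to 45.2).

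**Figure D2:**
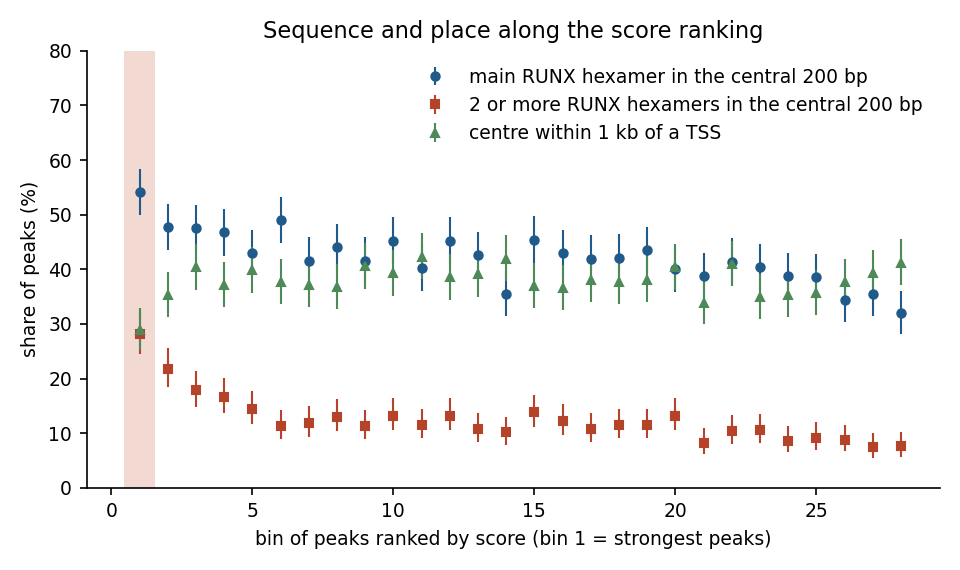
Share of peaks in percent along the ranking by score, in 28 bins of 522 peaks with the strongest peaks as bin 1 (shaded) and the 505 lowest peaks left out; error bars are 95% Wilson intervals. The share with at least 2 RUNX hexamers is 28.2% in bin 1, 21.8% in bin 2 and 7.66% in bin 28, and bin 1 has the lowest share near a TSS (28.9%).

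Along the ranking, the share with at least 2 hexamers went on falling below the threshold. At least 2 hexamers were found in 28.2% of the strongest peaks, 21.8% of the next 522 and 17.8% of the 522 after those, and in 7.66% of the last bin. TGTGGT was found in 54.2%, 47.7% and 47.5% of the first 3 bins and in 35.4% of bin 27, with the largest step of these first bins at the threshold. For peaks near a TSS the first bins had 28.9%, 35.2% and 40.4%, and the following bins lay between 33.9% and 42.3%. The bins were cut by the score that chose the peaks, and they are given as a description.

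The hexamers lay close to the peak centre. Where TGTGGT was present, the nearest copy was a median of 44 bp (39 to 54) from the centre in 403 strongest peaks and 46 bp (44 to 47) in the rest. In bins of 20 bp, the share was highest 20 to 40 bp to the right of the centre, with 78 strongest peaks (14.9%) against 8.20% of the rest. At the edges of the 400 bp on each side the shares were 1.53% and 1.51% on the left and 2.11% and 1.51% on the right. Of the nearest copies within 100 bp, 173 of 286 (60.5%) lay to the right of the centre in the strongest peaks and 62.2% in the rest. The median offset was 11.5 bp (4 to 18) and 15 bp (13 to 16) to the right on the chromosome. This shift was noticed in the data and its cause was not tested.

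**Figure D3:**
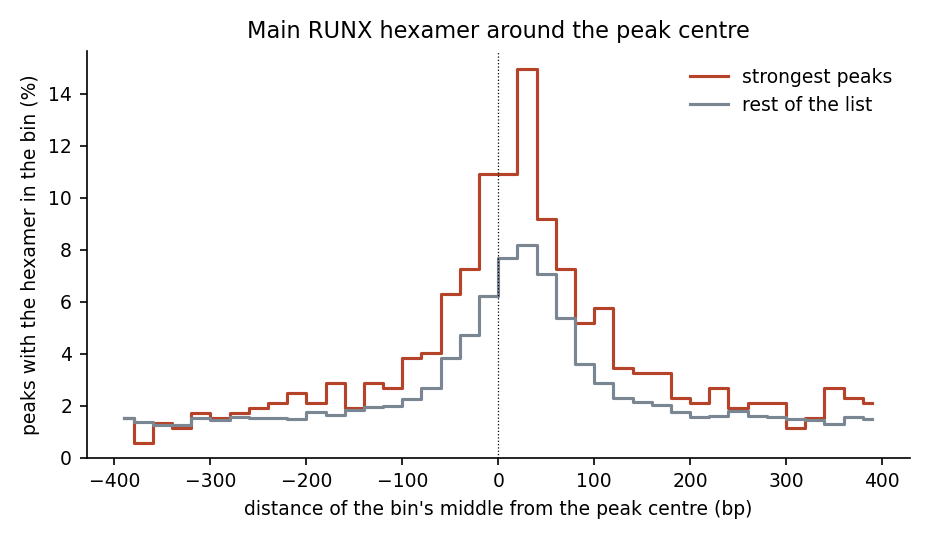
Share of peaks in percent that hold TGTGGT on either strand in each bin of 20 bp (vertical axis), by the distance of the bin's middle from the peak centre in bp (horizontal axis). Both lines are highest 20 to 40 bp to the right of the centre, at 14.9% for the strongest peaks and 8.20% for the rest.

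The bases next to the hexamer differed by at most 5.03 points between the groups. Over 729 hexamers in the strongest peaks and 11506 in the rest, a C preceded the hexamer in 42.4% against 38.6% (3.83 points, 0.184 to 7.56). The second base after it was A in 33.9% against 29.9% and T in 27.6% against 32.6% (-5.03 points, -8.27 to -1.57). Hexamers of 1 peak share their source, so these intervals are too narrow. Peaks with 10 or more copies of TGTGGT were left out of the strongest group only, so repeats in the rest stayed in these counts. Of 497 neighbouring hexamer pairs in 296 strongest peaks, 264 (53.1%) were on the same strand, against 56.7% of 4877 pairs in the rest. A pair within 50 bp was present in 128 of these peaks (43.2%) against 37.2% of the rest with at least 2 hexamers. The 4877 pairs of the rest lay in 3555 peaks, fewer pairs per peak, so this share does not show closer spacing. Spacing was spread widely, and the commonest, 9 bp on the same strand, was seen in 8 pairs. Such close pairs can be seen above in the windows of Runx1, Runx3 and Sfpi1.

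A few strongest peaks owed their hexamer number to tandem repeats. The peak in intron 4 of Btbd9, at chr17:30655471-30656495, held 27 RUNX hexamers, 26 of them TGTGGT. The peak in intron 1 of Sos1, the gene of an exchange factor for Ras, held 13 and scored 141.05. The next highest number was 6, in peaks nearest to Dedd2 (89.43), Ift57 (85.79), Ccnd1 (84.41), Snx29 (70.43) and Rptor (68.48). In the Btbd9 peak only 10 of 22 words of 32 bases, taken around the centre, occurred once in the genome. In the Sos1 peak 9 of 22 did, and in the Snx29 peak 10 of 22. Reads had been aligned uniquely, and the part of copy number in these scores was not tested. Such peaks were few, as all words were single copy in 481 strongest peaks (92.1%) and in 91.1% of the rest. The window chr17:80867832-80867981 of the Sos1 peak shows the repeat, with capitals as above.
Sos1: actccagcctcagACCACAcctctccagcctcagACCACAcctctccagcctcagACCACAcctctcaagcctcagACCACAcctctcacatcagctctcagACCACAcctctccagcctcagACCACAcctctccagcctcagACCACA

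No RUNX hexamer was found in the whole of 51 strongest peaks (9.77%), against 34.3% of the rest. Of these 51 peaks, 15 lay within 1 kb of a TSS, 20 in introns, 15 in intergenic sequence and 1 in an exon, 13 were CpG-rich, and 8 were among the 100 highest scores. The highest was the promoter peak of the kinase gene Lrrk1, 51 bp upstream of its TSS, with a score of 147.84. The next were nearest to Stim2 and Gm9796 (129.03 each), Os9 (127.71) and Rbpms2 (126.38). The absence of these letters says nothing about binding through other sequences. The window chr7:73533212-73533361 holds the centre of the Lrrk1 peak, in which nothing is in capitals.
Lrrk1: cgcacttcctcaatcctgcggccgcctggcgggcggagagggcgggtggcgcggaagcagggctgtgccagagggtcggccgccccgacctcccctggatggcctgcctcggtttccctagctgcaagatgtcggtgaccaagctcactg

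Of 22 motifs compared in the central 200 bp, 6 had an interval of the difference that excluded 0, and 3 of these were RUNX motifs. These were TGTGGT, the second form (22.6% against 13.6%, 9.02 points) and TGTGGTTT (12.5% against 9.22%, 3.23 points), which overlaps the first. The PU.1 motif GAGGAAGT was present in 73 of the 522 strongest peaks, which was 3.88 points (1.12 to 7.16) above the 10.1% of the rest. The AP-1 motif TGANTCA was present in 50 (9.58%) against 7.01% (2.57 points, 0.294 to 5.43). The NRF1 motif GCGCANGCG, found mostly in CpG-rich promoters, was lower, with 7 peaks (1.34%) against 3.34%. TGACGT, the letters of zDC and CREB sites, was present in 34 peaks (6.51%) against 5.84%, with an interval of -1.19 to 3.15 points. All motifs were searched on both strands.

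**Figure D4:**
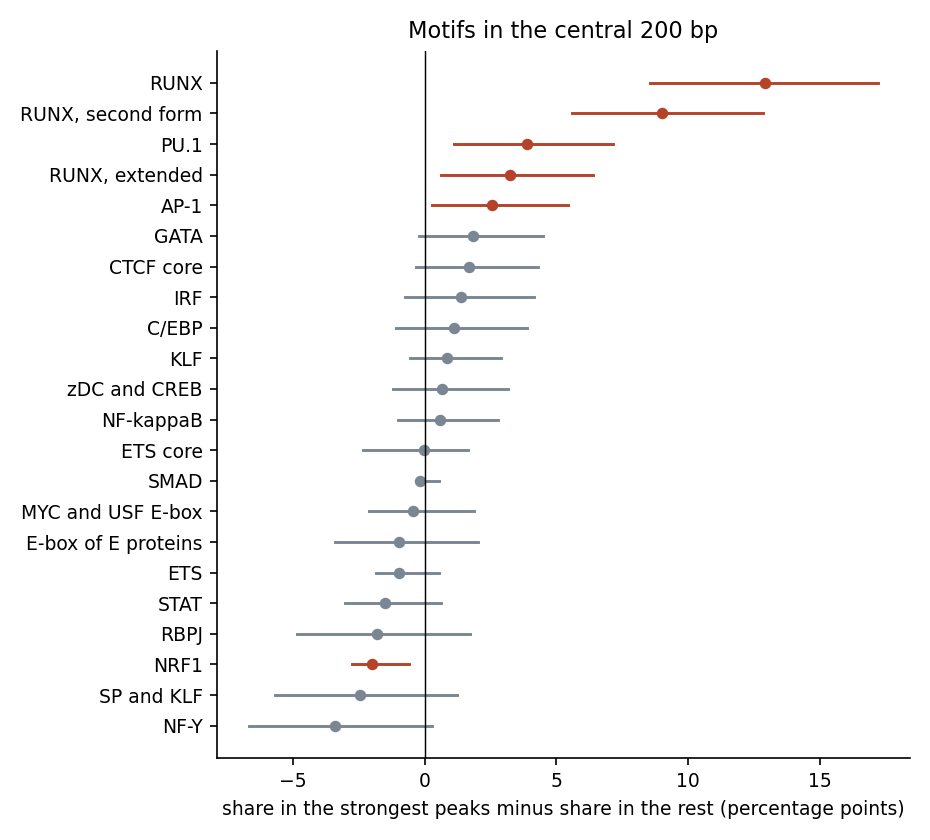
Difference in the share of peaks with each of 22 motifs in the central 200 bp, strongest minus rest, in percentage points; points are the differences, lines their 95% Newcombe intervals, and red marks an interval that excludes 0. The main RUNX hexamer has the highest difference, 12.9 points, and NRF1 is the only red motif below 0.

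The same motifs were compared away from TSS. Beyond 1 kb of a TSS, where 371 strongest and 9005 other peaks lay, the 3 RUNX motifs still had intervals above 0. PU.1 was then present in 16.4% against 13.6% (2.81 points, -0.695 to 6.98) and AP-1 in 10.2% against 9.23% (1.01 points, -1.74 to 4.57). Both intervals included 0, but fewer peaks were counted here, and the part of place was not tested. CCAAT, the NF-Y motif, was lower there, with 15.6% against 20.5% (-4.89 points, -8.34 to -0.76).

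A comparison of all 2080 hexamers, with both strands joined, was made to look beyond these motifs. The interval excluded 0 on the higher side for 103 hexamers (4.95%) and on the lower side for 93 (4.47%), with no adjustment for their number, and the median difference was -0.21 points. TGTGGT had the highest difference of all hexamers, and the next, GTGGTT (11.6 points) and CTGTGG (11.0 points), overlap it. They were followed by GAAGTG (10.1 points), TGCGGT (9.02), AAGTGG (8.56), AGTGGT (7.43) and GGAAGT (7.17). The last ones overlap, and GGAAGT and AAGTGG can be laid over each other to read GGAAGTGG, in which the letters of an ETS site run into those of a RUNX site. The lowest differences were those of GGAGCC (-6.10 points) and AGGAGC (-5.24 points).

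The joined form was then counted, a choice made after these values were seen, so it is given without a test. GGAAGTGG was present in 124 strongest peaks (23.8%) against 12.8% of the rest over the whole peak, and in 81 (15.5%) against 8.99% in the central 200 bp. The related GGATGTGG, which ends in the first letters of the main hexamer, was present in the central 200 bp of 36 (6.90%) against 3.01%. GGAAGTGG was found, over the whole peak, in 20 of the 51 strongest peaks without a RUNX hexamer. Its share among the 5012 other peaks without one was not counted, so this number has no comparison. Among the 20 highest scores it was in the peaks nearest to Atp13a2, Dmwd and Ccdc114. The window chr4:140539496-140539645 of the Atp13a2 peak shows it in capitals, on the minus strand.
Atp13a2: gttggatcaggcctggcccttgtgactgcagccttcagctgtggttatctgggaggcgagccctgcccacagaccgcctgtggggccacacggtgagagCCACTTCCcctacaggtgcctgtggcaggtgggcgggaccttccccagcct

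A longer stretch was shared by some strongest peaks at different places in the genome. The 14 letters ACCACAACATGAGG, which hold TGTGGT on the minus strand, were in the central 200 bp of 8 strongest peaks (1.53%) and of 49 others (0.336%). It is the stretch of this length around a TGTGGT that most strongest peaks shared, and was picked from them. Peaks with it included those nearest to Ier5 (187.18), Slc35d3 (131.62) and Prex1 (91.88), and the second Psma6 peak. Of 22 words of 32 bases around their centres 17, 18, 20 and 17, in this order, were single copy. In the peaks nearest to Ldoc1l and 2610301G19Rik 18 were, and in those nearest to Arhgef3 and Prkca all 22. Over all strongest peaks, 92.1% had only single-copy words. The part of repeated sequence in this sharing was not tested. The window chr1:156862210-156862359 of the Ier5 peak holds the stretch, with the RUNX hexamers in capitals.
Ier5: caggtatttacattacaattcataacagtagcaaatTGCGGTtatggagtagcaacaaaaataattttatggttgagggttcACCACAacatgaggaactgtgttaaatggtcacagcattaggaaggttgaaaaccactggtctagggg

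By nearest TSS, the strongest peaks were assigned to 488 protein-coding genes, 2.19% of 22238 in GENCODE M1. Of 268 matched genes in 12 lists, 24 (8.96%) were nearest to a strongest peak, and 202 (75.4%) to any peak, against 36.7% of all genes. Without the T and B cell genes and the lens crystallins and keratins, which are not genes of DC, 22 of 226 (9.73%) were nearest to a strongest peak and 180 (79.6%) to any peak. These are counts without a test, and the lists were chosen with earlier results of these data known. Most listed genes with a peak had only peaks under the threshold.

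**Figure D5:**
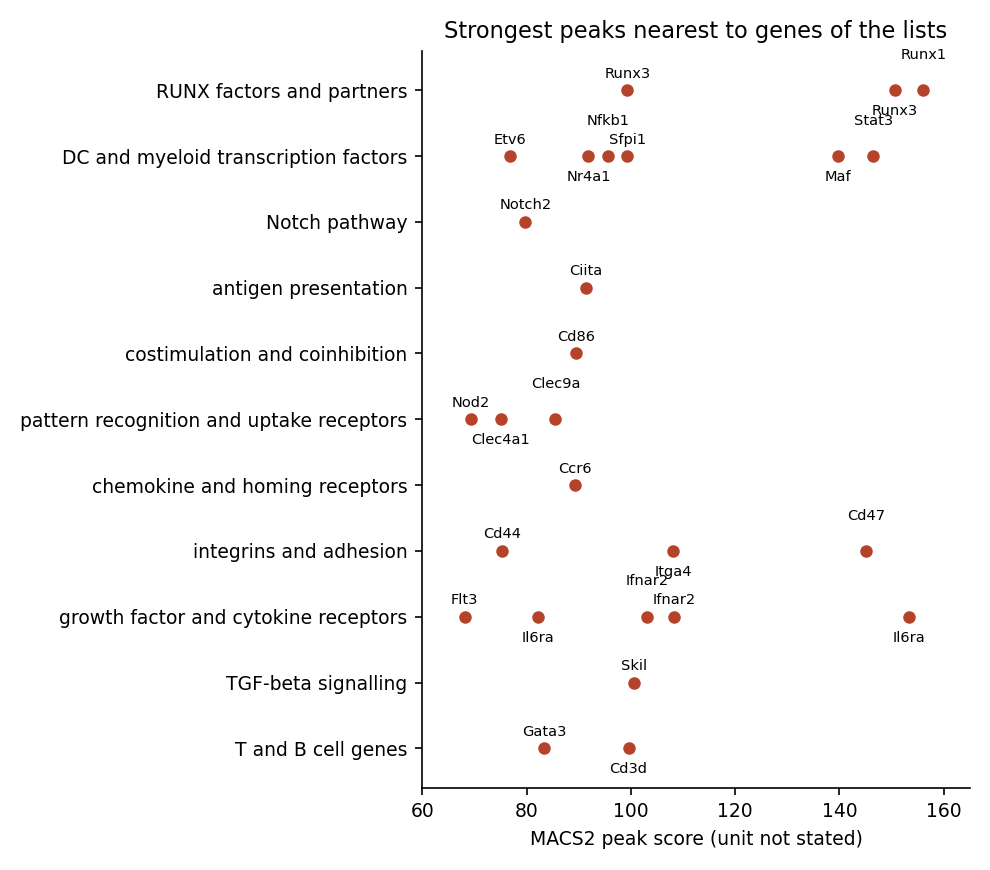
Peak score (horizontal axis, unit not stated) of the strongest peaks that lie nearest to a gene of each list (vertical axis); each point is 1 peak with its gene. Peaks of Runx1, Runx3 and Il6ra score above 150, and Flt3 lies at the threshold; the list of lens crystallins and keratins has no peak and is not drawn.

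Of 9 RUNX factors and partners, all 9 had a peak, against 36.7% of all genes. A strongest peak was found for 2 (22.2%, against 2.19%), the RUNX genes Runx1 and Runx3. The Runx1 peak, at chr16:92825827-92826613, scored 156.11 and lay in exon 1, 36 bp from the TSS, with 3 copies of TGTGGT. Runx3 had a peak of 150.59 located 271 bp upstream of its TSS, at chr4:134675808-134676784, with 4 copies. A second Runx3 peak of 99.32 lay 50672 bp upstream and held no RUNX hexamer. Both genes thus had RUNX hexamers at the strong peak beside a TSS, as seen in the windows above.

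Of 47 DC and myeloid transcription factor genes, 36 (76.6%) had a peak and 6 (12.8%) had a strongest peak. Over all genes the shares were 36.7% and 2.19%. Stat3, which transmits cytokine signals including that of Flt3, had one of 146.47 with 5 RUNX hexamers, in intron 14 and 803 bp from a TSS inside the gene. Sfpi1, the gene of PU.1, had one of 99.32 in intron 1 with 3 hexamers, 570 bp from the TSS. Nfkb1, a subunit of NF-kappaB, had one of 95.59 in intron 12, 70 bp from a TSS inside the gene. Maf, a macrophage transcription factor, was nearest to a peak of 139.7 at 308873 bp from its TSS. Nr4a1 (91.88) and the ETS family gene Etv6 (76.91, in intron 3) completed the list.

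Receptor genes followed. Of 27 growth factor and cytokine receptor genes 24 (88.9%) had a peak and 3 (11.1%) had a strongest peak. Over all genes the shares were 36.7% and 2.19%. Il6ra, a chain of the interleukin 6 receptor, had one of 153.34 in intron 1 and one of 82.19 in intron 3. Ifnar2, a chain of the type I interferon receptor, had 2 upstream, of 108.34 and 103.15. Flt3, the receptor of the main growth factor of DC, had one of 68.13, among the lowest of all. Of 14 integrin and adhesion genes 12 (85.7%) had a peak and 3 (21.4%) had a strongest one. These were Cd47, a signal against phagocytosis, with 145.12 in intron 1, Itga4 with 108.17 and Cd44 with 75.3. Of 16 chemokine and homing receptor genes 13 (81.25%) had a peak. A strongest one was found for 1 (6.25%), Ccr6, with 89.22 located 2314 bp upstream.

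Of 27 antigen presentation genes 26 (96.3%) had a peak and 1 (3.70%) had a strongest one, against 36.7% and 2.19% of all genes. Among genes with a peak, 1 of 26 was a lower share than the 488 of 8157 over all genes. The gene with a strongest peak was Ciita, the transactivator of MHC class II genes. It scored 91.32 and lay in intron 1, 188 bp upstream of a TSS, with 3 copies of TGTGGT. The window chr16:10488048-10488197 is shown because Ciita controls this whole class of genes.
Ciita: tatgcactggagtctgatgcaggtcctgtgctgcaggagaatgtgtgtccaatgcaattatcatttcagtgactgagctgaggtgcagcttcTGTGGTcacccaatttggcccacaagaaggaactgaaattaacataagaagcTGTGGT

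Of 18 costimulation and coinhibition genes 15 (83.3%) had a peak, against 36.7% of all genes. Cd86, a ligand of CD28, had the only strongest one, of 89.43 (5.56% of the list, against 2.19%). Of 32 pattern recognition and uptake receptor genes 22 (68.75%) had a peak. Those nearest to a strongest one (9.375%) were Clec9a (85.54), Clec4a1 (75.08) and Nod2 (69.27). The peak named for Clec9a lay in intron 3 of Clec1a, 14936 bp from the Clec9a TSS. Of 20 Notch pathway genes 11 (55%) had a peak. Notch2, the receptor that splenic CD4+ DC need, had the only strongest one (5% of the list), of 79.8 located 42254 bp upstream. Of 16 TGF-beta signalling genes 12 (75%) had a peak. Skil, an inhibitor of SMAD proteins, had the only strongest one (6.25% of the list), of 100.57 located 1267 bp upstream. Genes of other cells were listed too. Of 26 T and B cell genes 14 (53.8%) had a peak and 2 (7.69%) had a strongest one, Cd3d (99.56) and Gata3 (83.44). Of 16 lens crystallin and keratin genes 8 (50%) had a peak and 0 had a strongest one. For any peak both lists stood above the 36.7% of all genes. The T and B cell genes also stood above 2.19% for a strongest one. A share above that of all genes was thus not particular to lists of DC genes.

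The genes that the study listed from its arrays as different in Runx3-deficient CD4+ DC were compared by symbol only, and 400 of them matched. Of the 488 genes nearest to a strongest peak, 25 (5.12%) were on that list. Of 7669 genes nearest to other peaks alone 243 (3.17%) were on it, a difference of 1.95 points (0.273 to 4.31), and of 14081 genes without a peak 132 (0.937%). Runx3 itself, the deleted gene, is among the 25, as are Hdac10 and Maf.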

How the data were processed

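Runx3 ChIP-seq of sorted splenic CD4+ DC comprised 2 Runx3_IP and 2 input samples. The submitters' processing notes name CASAVA 1.8, Bowtie, MACS2 and mm9. The authors aligned 50 bp reads uniquely with bowtie and called peaks once with MACS2 on both precipitates against both inputs. The deposited list gives a start, an end and a score per peak, and the authors do not state the unit of the score, the MACS2 version, its threshold or the handling of duplicate reads. Depth per library was not analysed here, and it limits how weak a region could be called. Positions are on mm9, counted from 1.

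The score chose the peaks and was not tested. Centres were placed on GENCODE M1, with TSS of all transcripts. The longest protein-coding transcript of a gene gave the exon and intron numbers. Hexamers were counted on both strands of NCBIM37. Strongest peaks with 10 or more copies of TGTGGT were left out of the counts of flanking bases, and no peak of the rest was. Counts of spacing left out peaks with 10 or more hexamers in both groups. Shares were compared as differences with 95% Newcombe intervals built from Wilson intervals, medians have exact binomial intervals, and peaks were compared with windows 10 kb away by exact McNemar tests. Repeated sequence was measured as genome copies of 32-base words taken every 8 bases. Listed symbols that GENCODE M1 lacks were matched through RefSeq synonyms.

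Named genes were those of the 20 highest scores, those nearest to 3 or more strongest peaks, list genes nearest to one, and the peaks with the most or no RUNX hexamers; genes named outside this rule were picked after their values were seen. The members and lists were chosen with earlier results of these data known. Alternatives were scores of 50 and 100, windows of 100 and 400 bp and the whole peak, a rest of like width or of low score, autosomes, peaks joined within 300 bp, protein-coding TSS, other distances, upstream windows and GREAT domains of 5 kb upstream, 1 kb downstream and up to 1000 kb. The motif search and the intervals were tested on simulated data. The scripts ran on Python 3.11.15 with pysam 0.24.0 for sequences, pandas 2.3.3, numpy 2.4.6 and scipy 1.17.1 for values and matplotlib 3.10.9 for figures.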

Additional observations from a re-analysis of the deposited data

How the results depend on the processing

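Of 72 values under alternatives, 64 were classed as the same, 2 as weaker and 6 as moved, and no difference in shares reversed. Counts of motifs, hexamers and genes among them have no direction or interval, so they could not reverse. GREAT domains, for example, gave 33 listed genes against 24, which was classed as the same. Against other peaks of like width, the difference in near neighbours was 3.05 points and its interval included 0. Beyond 1 kb of a TSS, the difference in CpG-rich windows was -1.21 points, also with an interval that included 0. The number of motifs of 22 whose interval excluded 0 was 6, and it was 11 against peaks of like width, 17 over the whole peak and 2 in the central 100 bp. Hexamers lower in the strongest peaks numbered 58 at a score of 100 or more, against 93. Genes of the lists with a peak in the score range numbered 9 at 100 or more and 40 at 50 or more, against 24. Limits to single-copy centres, to peaks beyond 1 kb of a TSS and a window moved by 20 bp were chosen after seeing the data. No paired analysis was possible because both replicates were called together and the list has no value for either, and for the same reason no replicate could be left out. Depth limits which regions were called, and scores can be compared within this list only.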
